A study of Homo sapiens with 8 samples.

Results

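The 10 genes described here encode the core proteins of elastic fibres and the enzymes that cross-link them: the fibrillins FBN1 and FBN2, the elastin gene ELN, the fibulins FBLN1, FBLN2, FBLN5, EFEMP1 (fibulin-3) and EFEMP2 (fibulin-4), and the lysyl oxidases LOX and LOXL1. They were chosen by name from a table of 61209 gene names, and all 10 passed the filter on low counts, as 22554 genes did. RNA was sequenced from the established human embryonic stem cell line H1, carrying Msx1-P2A-tdTomato, a fluorescent reporter of the homeobox gene MSX1. All groups had been driven towards lateral plate mesoderm with Activin A, the GSK3 inhibitor CHIR99021, BMP4 and FGF2, and were dissociated at day 4 and pelleted at 25000 cells per well. The FGF8+10 pellets were cultured with 500 ng/mL of FGF8 and 500 ng/mL of FGF10, growth factors that signal through FGF receptor kinases. For the Mock pellets the medium is not stated in the labels. Sorting on day 8 kept cells with reporter signal and split them by PDGFRA, a mesenchymal receptor, into a Pdgfra-positive and a Pdgfra-low population. The groups were therefore FGF8+10 Pdgfra-positive, FGF8+10 Pdgfra-low, Mock Pdgfra-positive and Mock Pdgfra-low, with 2 libraries each.

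Elastic fibres have an outer scaffold of fibrillin microfibrils and an inner core of cross-linked elastin. Fibrillins are very large secreted glycoproteins that assemble head to tail. FBN2 is known best from embryonic tissue, including the limb, and FBN1 from fetal and adult tissue. Microfibrils also hold latent TGF-beta and BMP complexes in the matrix. The short fibulins bring tropoelastin and lysyl oxidases together on the microfibril, and the longer fibulins FBLN1 and FBLN2 occur in elastic fibres and basement membranes. LOX and LOXL1 oxidise lysine residues of elastin and, for LOX, collagens, which is the step that makes cross-links.

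Libraries held 47698561 to 64390444 counts, with both mates of a read pair counted. PDGFRA stood at 712 and 716 CPM (counts relative to library size after TMM scaling) in FGF8+10 Pdgfra-positive cells, against 279 and 292 CPM in FGF8+10 Pdgfra-low cells, and at 453 and 455 CPM in Mock Pdgfra-positive cells, against 194 and 189 CPM in Mock Pdgfra-low cells. MSX1 was at 48.6 to 52.8 CPM in the FGF8+10 libraries and 21.3 to 26.2 CPM in the Mock libraries. The sort followed the treatment, so the same gate may hold different cells in the 2 treatments. In these bulk libraries, fewer cells that express a gene and less RNA of it per cell cannot be told apart. The labels call the replicates biological without naming separate differentiations as their source, and the p-values therefore reflect no more than the spread among these libraries, which may be technical.

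Under FGF8+10 the set split in the same direction in both populations. FBN1, LOX, FBLN2 and LOXL1 rose, FBN2, FBLN5, FBLN1 and EFEMP2 fell, and ELN passed no treatment test. In Pdgfra-positive cells 5 of the 10 genes rose (background 25.8% of all tested genes) and 4 fell (background 25.1%), with an adjusted p under 0.05 in edgeR's quasi-likelihood test with Benjamini-Hochberg adjustment, against 50.9% of all tested genes called in either direction. In Pdgfra-low cells 4 rose (background 27.9%) and 4 fell (background 27.7%), against 55.7% in either direction. The same 8 genes were called the same way in both populations, 80.0% of the set against 39.1% of all tested genes. These 8 are also the genes whose 4 FGF8+10 libraries did not overlap the 4 Mock libraries, a separation seen in 42.7% of tested genes (21.1% with FGF8+10 higher and 21.6% with FGF8+10 lower). The median log2 fold change of the 10 genes was 0.22 in Pdgfra-positive and 0.17 in Pdgfra-low cells, beside -0.01 and -0.02 over all tested genes. Changes of at least 2-fold among called genes numbered 5 of 10 in Pdgfra-positive cells (background 17.1%) and 3 of 10 in Pdgfra-low cells (background 21.3%).

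**Figure D1:**
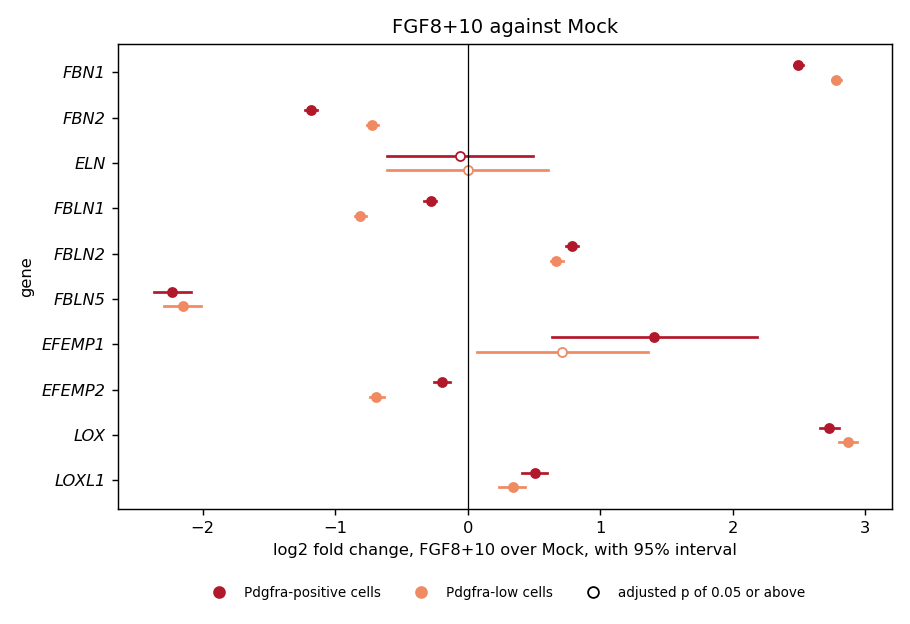
Log2 fold change of each of the 10 genes, FGF8+10 over Mock, on the x axis, with its 95% interval as a bar and a separate point for Pdgfra-positive and Pdgfra-low cells; open points had an adjusted p of 0.05 or above. FBN1 and LOX lie between 2.49 and 2.87 in both populations, FBLN5 lies at -2.23 and -2.15, and the intervals of ELN cross 0.

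The fibrillins moved in opposite directions. FBN1, the main fibrillin of mature microfibrils, was at 4989 and 4945 CPM in FGF8+10 Pdgfra-positive cells and 3692 and 3762 CPM in FGF8+10 Pdgfra-low cells, against 882 and 881 CPM in Mock Pdgfra-positive cells and 541 and 542 CPM in Mock Pdgfra-low cells. All 4 FGF8+10 libraries were far above all 4 Mock libraries, and within each treatment the Pdgfra-positive libraries were the higher ones. The rise was 5.63-fold in Pdgfra-positive cells (log2 fold change 2.49 ± 0.017, SE, n = 2 per group; adjusted p = 1.23e-55 by edgeR's quasi-likelihood test) and 6.88-fold in Pdgfra-low cells (2.78 ± 0.018; adjusted p = 1.45e-57). FBN2, the fibrillin best known from embryos, was at 287 and 283 CPM in FGF8+10 Pdgfra-positive cells and 362 and 356 CPM in FGF8+10 Pdgfra-low cells, against 649 and 643 CPM in Mock Pdgfra-positive cells and 589 and 593 CPM in Mock Pdgfra-low cells. It fell 2.27-fold in Pdgfra-positive cells (log2 fold change -1.18 ± 0.022, adjusted p = 1.82e-38 by the same edgeR test) and 1.65-fold in Pdgfra-low cells (-0.72 ± 0.022, adjusted p = 3.09e-30).

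Levels of different genes were compared per kilobase of exon (RPKM, on the TMM-adjusted library size). Exon lengths differ, at 18525 bases for FBN1 and 3637 bases for LOXL1. Such a length covers all annotated exons of a gene and can exceed that of its transcripts. Ranks, shares and ratios between genes therefore depend on the annotation. FBN1 averaged 268 ± 1.71 RPKM in FGF8+10 Pdgfra-positive cells and 201 ± 2.70 RPKM in FGF8+10 Pdgfra-low cells, against 47.6 ± 0.0364 RPKM in Mock Pdgfra-positive cells and 29.2 ± 0.0513 RPKM in Mock Pdgfra-low cells (SD, n = 2 each). FBN2 averaged 16.5 ± 0.167 and 20.8 ± 0.245 RPKM in FGF8+10 Pdgfra-positive and Pdgfra-low cells, against 37.4 ± 0.260 and 34.3 ± 0.153 RPKM in Mock Pdgfra-positive and Pdgfra-low cells. The ratio of the RPKM of FBN1 to that of FBN2 was 16.2 and 16.3 in FGF8+10 Pdgfra-positive cells and 9.50 and 9.85 in FGF8+10 Pdgfra-low cells, against 1.27 and 1.28 in Mock Pdgfra-positive cells and 0.855 and 0.852 in Mock Pdgfra-low cells. The near-equal fibrillin transcript levels of the Mock cells thus stood beside a large excess of FBN1 in the FGF8+10 cells. FBN2 made up 5.79 to 9.52% of the summed RPKM of both genes in the FGF8+10 libraries and 43.9 to 54.0% in the Mock libraries.

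FBN1 took 0.522 and 0.527% of all counts in FGF8+10 Pdgfra-positive cells and 0.393 and 0.399% in FGF8+10 Pdgfra-low cells, against 0.0826% in both Mock Pdgfra-positive libraries and 0.0515% in both Mock Pdgfra-low libraries. By counts it ranked 5th of all genes in both FGF8+10 Pdgfra-positive libraries and 4th in both FGF8+10 Pdgfra-low libraries, against ranks of 95 to 97 in Mock Pdgfra-positive and 193 to 195 in Mock Pdgfra-low libraries. By RPKM, which divides by its long exon length, its ranks were 50 and 75 in the FGF8+10 populations (Pdgfra-positive and Pdgfra-low). They were 571 and 572 in Mock Pdgfra-positive and 1090 and 1093 in Mock Pdgfra-low cells. FBN1 lies on chromosome 15 (48408313 to 48645721, minus strand, GRCh38 as in the count table), and FBN2 on chromosome 5 (128257909 to 128659185, minus strand). No annotated exon of another gene overlaps the exons of FBN1, and 0.3% of the exon length of FBN2 overlaps SLC27A6 on the opposite strand.

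The 250 bases before the RefSeq transcription start (GRCh38.p14) are shown for both fibrillins because the pair moved in opposite directions. Capitals mark matches to any of 4 motifs searched on both strands: the AP-1 site TGANTCA, the ETS core CCGGAA, the GC box GGGCGG bound by SP factors, and the TATA box TATAAA. Matches that overlap each other were counted separately. Of 35116 RefSeq windows of the same length, 6.6% held TGANTCA, 14.5% CCGGAA, 42.6% GGGCGG and 10.7% TATAAA. The FBN1 window, chr15:48644971-48645220 on the minus strand, held none of them, and the FBN2 window, chr5:128538246-128538495 on the minus strand, held 3 GC boxes. Both windows lie within the span that the count table gives the gene but in no annotated exon.
FBN1 upstream window: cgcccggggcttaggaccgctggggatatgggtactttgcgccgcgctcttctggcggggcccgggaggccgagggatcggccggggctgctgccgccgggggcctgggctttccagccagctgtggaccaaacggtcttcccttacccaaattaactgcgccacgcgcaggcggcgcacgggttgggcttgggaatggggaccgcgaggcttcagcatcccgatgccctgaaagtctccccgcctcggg
FBN2 upstream window: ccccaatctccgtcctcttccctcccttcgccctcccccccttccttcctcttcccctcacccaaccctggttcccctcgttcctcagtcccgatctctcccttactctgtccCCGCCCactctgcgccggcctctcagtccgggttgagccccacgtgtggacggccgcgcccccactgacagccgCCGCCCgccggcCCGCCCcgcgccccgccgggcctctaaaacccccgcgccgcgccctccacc
A match describes the letters of the window only, and no measurement here bears on what binds there.

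**Figure D2:**
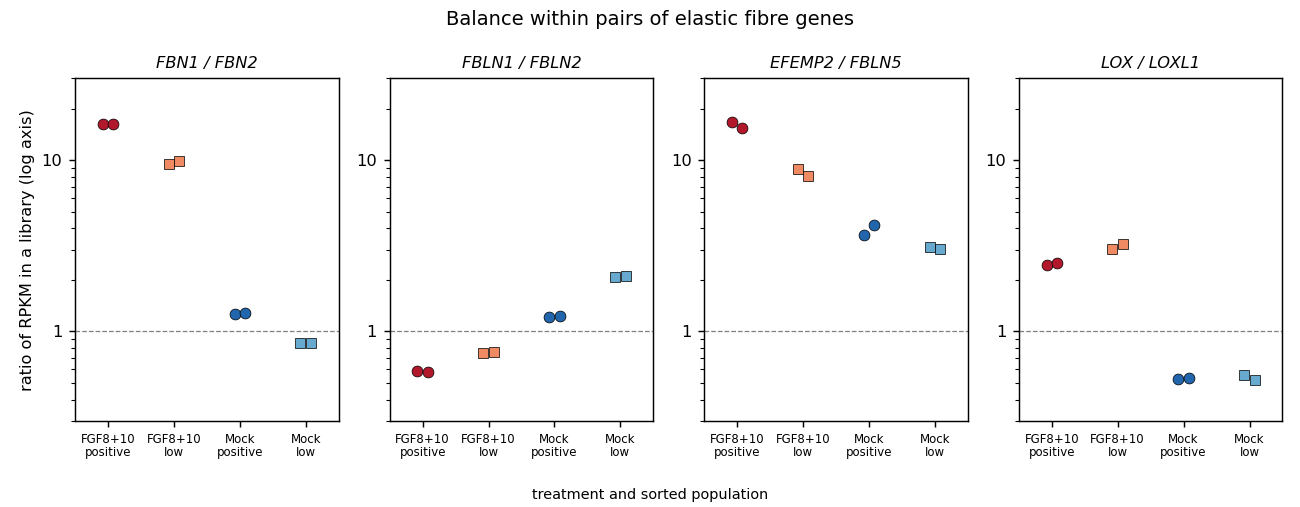
Ratios of RPKM values between paired genes in each of the 8 libraries, on a log axis, with 1 point per library in the 4 groups. FBN1 over FBN2 lies between 9.50 and 16.3 in the FGF8+10 libraries and between 0.852 and 1.28 in the Mock libraries, and LOX over LOXL1 lies between 2.45 and 3.23 in the FGF8+10 libraries and between 0.523 and 0.556 in the Mock libraries.

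Elastin itself was barely transcribed. ELN, which encodes tropoelastin, was at 1.84 and 1.81 CPM in FGF8+10 Pdgfra-positive cells and 1.15 and 0.836 CPM in FGF8+10 Pdgfra-low cells, against 1.99 and 1.81 CPM in Mock Pdgfra-positive cells and 1.12 and 0.860 CPM in Mock Pdgfra-low cells, on 49 to 124 counts per library. The libraries sorted by population and overlapped between treatments. Its log2 fold change was -0.06 ± 0.27 in Pdgfra-positive cells (95% interval -0.61 to 0.49, adjusted p = 0.883) and 0.00 ± 0.30 in Pdgfra-low cells (95% interval -0.61 to 0.61, adjusted p = 0.997) in edgeR's quasi-likelihood test. Changes within those intervals were not excluded by these libraries. ELN lay between percentiles 16.0 and 26.6 of the tested genes by RPKM, while FBN1 lay between 95.2 and 99.8. Of the ELN exon length, 2.5% overlaps ELN-AS1 on the opposite strand, which had 0 to 4 counts per library.

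Both long fibulins were abundant and also moved apart. FBLN1, a fibulin of elastic fibres and basement membranes, was at 660 and 646 CPM in FGF8+10 Pdgfra-positive cells and 598 and 604 CPM in FGF8+10 Pdgfra-low cells, against 801 and 790 CPM in Mock Pdgfra-positive cells and 1053 and 1051 CPM in Mock Pdgfra-low cells. All FGF8+10 libraries were below all Mock libraries. It fell 1.22-fold in Pdgfra-positive cells (log2 fold change -0.28 ± 0.020, adjusted p = 1.15e-16) and 1.75-fold in Pdgfra-low cells (-0.81 ± 0.020, adjusted p = 8.34e-34) in edgeR's quasi-likelihood test. FBLN2, a relative of FBLN1 that binds fibrillin and versican, was at 748 and 734 CPM in FGF8+10 Pdgfra-positive cells and 530 and 526 CPM in FGF8+10 Pdgfra-low cells, against 434 and 425 CPM in Mock Pdgfra-positive cells and 333 and 329 CPM in Mock Pdgfra-low cells. The rise was 1.72-fold in Pdgfra-positive cells (0.79 ± 0.022, adjusted p = 1.01e-31) and 1.59-fold in Pdgfra-low cells (0.67 ± 0.022, adjusted p = 4.24e-29). Per length, the ratio of FBLN1 to FBLN2 was 0.582 to 0.760 in the FGF8+10 libraries and 1.22 to 2.11 in the Mock libraries. Those ratios rest on exon lengths of 7285 bases for FBLN1 and 4818 bases for FBLN2. By CPM, FBLN1 was the higher in the Mock and FGF8+10 Pdgfra-low libraries, and FBLN2 in the FGF8+10 Pdgfra-positive libraries. Which of the pair had more transcripts under FGF8+10 is therefore not settled here.

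Among the short fibulins, FBLN5 showed the largest fall of the set. FBLN5, which binds integrins, elastin and LOXL1, was at 10.0 and 10.8 CPM in FGF8+10 Pdgfra-positive cells and 13.3 and 13.8 CPM in FGF8+10 Pdgfra-low cells, against 52.1 and 45.2 CPM in Mock Pdgfra-positive cells and 60.0 and 60.4 CPM in Mock Pdgfra-low cells. It fell 4.69-fold in Pdgfra-positive cells (log2 fold change -2.23 ± 0.070, adjusted p = 1.01e-29) and 4.44-fold in Pdgfra-low cells (-2.15 ± 0.068, adjusted p = 9.6e-30) in edgeR's quasi-likelihood test. EFEMP2, which binds LOX and is needed for elastin assembly in mice, was at 186 and 185 CPM in FGF8+10 Pdgfra-positive cells and 131 and 125 CPM in FGF8+10 Pdgfra-low cells, against 212 and 212 CPM in Mock Pdgfra-positive cells and 207 and 204 CPM in Mock Pdgfra-low cells. The FGF8+10 Pdgfra-low libraries stood furthest below the others. Per length, the ratio of EFEMP2 to FBLN5 was 8.13 to 16.7 in the FGF8+10 libraries and 3.04 to 4.20 in the Mock libraries. EFEMP2 fell 1.61-fold in Pdgfra-low cells (-0.69 ± 0.029, adjusted p = 1.14e-24) and 1.14-fold in Pdgfra-positive cells (-0.19 ± 0.029, adjusted p = 2.38e-07). When libraries were scaled by their totals alone, the EFEMP2 value in Pdgfra-positive cells was -0.02 (adjusted p = 0.653). That scaling shifted the median of all tested genes by 0.17 in Pdgfra-positive and 0.16 in Pdgfra-low cells on the log2 scale. The calls over all tested genes were then 8164 higher and 3991 lower in Pdgfra-positive cells, against 5811 higher and 5658 lower with TMM, and 8113 higher and 4672 lower in Pdgfra-low cells, against 6300 and 6256 with TMM.

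EFEMP1, a short fibulin of connective tissue, was close to the detection limit at 15 to 115 counts per library. It was at 0.740 and 1.27 CPM in FGF8+10 Pdgfra-positive cells and 1.72 and 1.96 CPM in FGF8+10 Pdgfra-low cells, against 0.336 and 0.415 CPM in Mock Pdgfra-positive cells and 0.887 and 1.36 CPM in Mock Pdgfra-low cells. The FGF8+10 Pdgfra-positive libraries overlapped the Mock Pdgfra-low libraries. EFEMP1 rose 2.66-fold in Pdgfra-positive cells (log2 fold change 1.41 ± 0.38, adjusted p = 0.00178), a call that was lost without FGF8+10 Pdgfra-positive replicate 2 (0.99, adjusted p = 0.0789). In Pdgfra-low cells the value was 0.71 ± 0.32 (95% interval 0.07 to 1.36, adjusted p = 0.0549), which missed the threshold in edgeR's quasi-likelihood test and passed it without Mock Pdgfra-low replicate 2 (1.05, adjusted p = 0.0322). It also passed without either Mock Pdgfra-positive library (adjusted p = 0.0464 and 0.0466) or FGF8+10 Pdgfra-positive replicate 1 (adjusted p = 0.0485). Other settings under which it passed were library totals alone (0.87, adjusted p = 0.0175), counts divided by 2 (adjusted p = 0.0254), only the libraries compared (adjusted p = 0.0307), limma-voom (adjusted p = 0.033) and the replicate block (adjusted p = 0.0441).

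FBLN2 and FBLN5 are shown as the fibulins that moved furthest in each direction among those with ample counts. The FBLN2 window, chr3:13548875-13549124 on the plus strand, ends at the base before the start that the count table also gives the gene, and held 5 GC boxes. The FBLN5 stretch, chr14:91947695-91947934 on the minus strand, is the 240 bases left of its 250-base window after 10 annotated exon bases were taken off, lies inside the annotated span of the gene, and held 1 ETS core and 3 GC boxes. Capitals mark the motif matches as above.
FBLN2 upstream window: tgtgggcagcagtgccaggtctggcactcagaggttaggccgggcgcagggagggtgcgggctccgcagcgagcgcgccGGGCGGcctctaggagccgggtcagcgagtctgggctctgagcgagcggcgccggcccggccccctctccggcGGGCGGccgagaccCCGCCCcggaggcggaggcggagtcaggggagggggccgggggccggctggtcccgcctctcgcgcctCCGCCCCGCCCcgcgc
FBLN5 upstream window: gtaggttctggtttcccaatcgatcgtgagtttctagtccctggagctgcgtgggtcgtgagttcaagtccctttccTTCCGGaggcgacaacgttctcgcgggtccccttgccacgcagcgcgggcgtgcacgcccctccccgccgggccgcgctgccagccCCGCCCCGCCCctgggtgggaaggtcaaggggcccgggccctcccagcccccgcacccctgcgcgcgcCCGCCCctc
RefSeq windows were at hand for 8 of the 10 genes, 12 windows in all. At least 1 window of FBN2, FBLN1, FBLN2, FBLN5, EFEMP2 and LOX held a GC box, and no window of FBN1 or LOXL1 did. The share of 42.6% is over single windows. It does not compare directly with a count of genes, since FBLN2, FBLN5 and LOX had several windows. A second window of FBLN2 held none of the 4 motifs, and a second window of FBLN5 held 1 GC box and 1 TATA box.

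Both cross-linking enzymes rose, by very different amounts. LOX, the founding lysyl oxidase, was at 253 and 263 CPM in FGF8+10 Pdgfra-positive cells and 289 and 291 CPM in FGF8+10 Pdgfra-low cells, against 38.9 and 39.1 CPM in Mock Pdgfra-positive cells and 40.0 and 39.2 CPM in Mock Pdgfra-low cells. Mock libraries were nearly equal, and every FGF8+10 library lay far above them. LOX rose 6.62-fold in Pdgfra-positive cells (log2 fold change 2.73 ± 0.034, adjusted p = 1.59e-45) and 7.31-fold in Pdgfra-low cells (2.87 ± 0.033, adjusted p = 4.9e-47) in edgeR's quasi-likelihood test, which were the largest fold changes of the 10 genes. LOXL1, which is needed for elastic fibre renewal in adult mice, was at 67.1 and 68.6 CPM in FGF8+10 Pdgfra-positive cells and 62.3 and 58.5 CPM in FGF8+10 Pdgfra-low cells, against 48.1 and 47.4 CPM in Mock Pdgfra-positive cells and 46.8 and 48.8 CPM in Mock Pdgfra-low cells. It rose 1.42-fold in Pdgfra-positive cells (0.51 ± 0.048, adjusted p = 1.08e-12) and 1.26-fold in Pdgfra-low cells (0.34 ± 0.047, adjusted p = 3.41e-08). The antisense gene LOXL1-AS1 overlaps 9.2% of the LOXL1 exon length. It was at 11.8 to 12.7 CPM in the FGF8+10 libraries and 7.46 to 9.19 CPM in the Mock libraries. Counting ignored strand and dropped reads that hit several genes, so reads on the shared exon bases counted for neither gene. Outside the shared bases, reads of one gene that extend over exons of the other are not separable. Per length, the ratio of LOX to LOXL1 was 2.45 and 2.50 in FGF8+10 Pdgfra-positive cells and 3.01 and 3.23 in FGF8+10 Pdgfra-low cells, against 0.525 and 0.537 in Mock Pdgfra-positive cells and 0.556 and 0.523 in Mock Pdgfra-low cells. By RPKM, LOX was therefore the more abundant of the pair in every FGF8+10 library and LOXL1 in every Mock library.

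The make-up of the set differed between treatments. The summed RPKM of the 10 genes was 633 and 627 in FGF8+10 Pdgfra-positive cells and 509 and 510 in FGF8+10 Pdgfra-low cells, against 356 and 351 in Mock Pdgfra-positive cells and 348 in both Mock Pdgfra-low libraries. FBN1 made up 39.2 to 42.6% of that sum in the FGF8+10 libraries and 8.39 to 13.6% in the Mock libraries. FBLN1 was the most abundant of the 10 genes in all 4 Mock libraries, at 30.9 to 41.5% of the sum, and made up 14.1 to 16.2% in the 4 FGF8+10 libraries. By the same RPKM, FBLN2 was second in all 8 libraries, and ELN and EFEMP1 were the lowest pair in all 8.

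**Figure D3:**
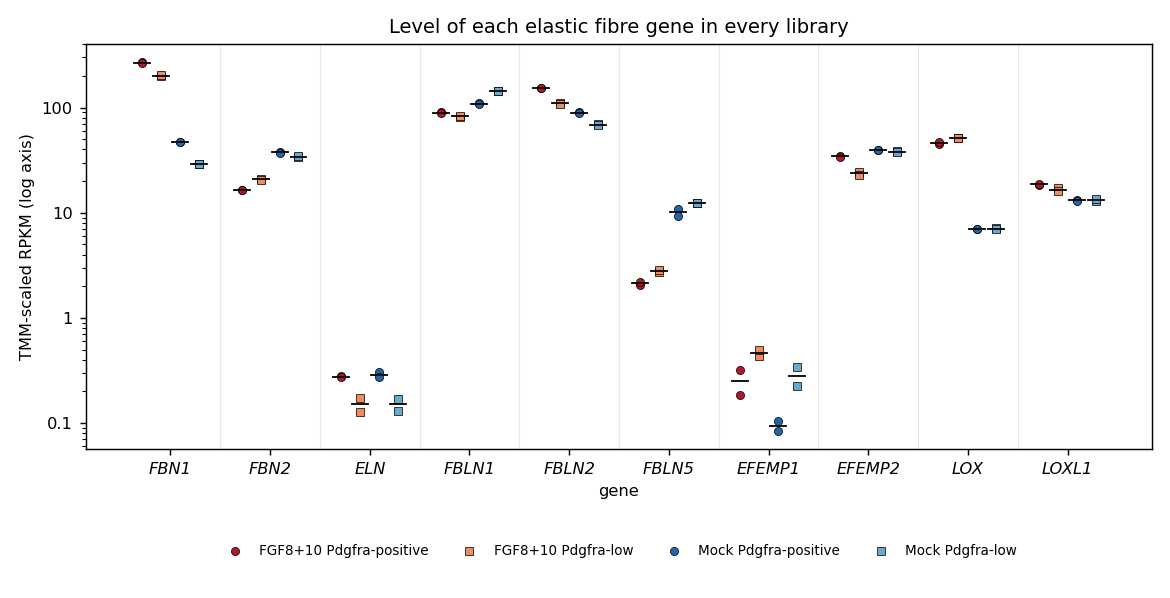
Level of each of the 10 genes in every library as TMM-scaled RPKM on a log axis, with the 2 libraries of each group as points and the group mean as a line. FBN1 stands at 201 to 268 RPKM on average in the FGF8+10 groups and 29.2 to 47.6 RPKM in the Mock groups, while ELN and EFEMP1 stay below 0.5 RPKM in every group.

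Between the populations, FBN1, FBLN2 and ELN were higher in Pdgfra-positive cells under both treatments, and FBLN5 and EFEMP1 were lower. Under FGF8+10, 6 of the 10 genes were higher (background 19.6%) and 4 lower (background 21.7%) in Pdgfra-positive than in Pdgfra-low cells, against 41.4% of tested genes called. Under Mock, 4 were higher (background 12.4%), 3 lower (background 13.4%) and 3 not called, against 25.8% of tested genes. FBN1 was 1.33-fold higher in Pdgfra-positive cells under FGF8+10 (log2 fold change 0.41 ± 0.016, adjusted p = 1.8e-25) and 1.63-fold higher under Mock (0.70 ± 0.017, adjusted p = 3.03e-33). FBLN2 was 1.40-fold higher under FGF8+10 (0.49 ± 0.022, adjusted p = 1.86e-23) and 1.30-fold higher under Mock (0.38 ± 0.022, adjusted p = 1.48e-18). FBLN5 was 1.31-fold lower under FGF8+10 (-0.39 ± 0.077, adjusted p = 4.3e-05) and 1.24-fold lower under Mock (-0.31 ± 0.061, adjusted p = 9.06e-05), all by edgeR's quasi-likelihood test.

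FBN2 and FBLN1 took opposite signs in the 2 treatments. FBN2 was 1.26-fold lower in Pdgfra-positive cells under FGF8+10 (log2 fold change -0.33 ± 0.022, adjusted p = 4.66e-17) and 1.09-fold higher under Mock (0.13 ± 0.022, adjusted p = 7.04e-06). FBLN1 was 1.09-fold higher in Pdgfra-positive cells under FGF8+10 (0.12 ± 0.020, adjusted p = 2.69e-06) and 1.32-fold lower under Mock (-0.40 ± 0.020, adjusted p = 2.99e-21). EFEMP2 was 1.45-fold higher in Pdgfra-positive cells under FGF8+10 (0.54 ± 0.029, adjusted p = 3.53e-20), while its difference under Mock was 0.04 (95% interval -0.02 to 0.10, adjusted p = 0.343). The lysyl oxidases differed little. LOX was 1.12-fold lower in Pdgfra-positive cells under FGF8+10 (-0.17 ± 0.029, adjusted p = 4.25e-06) and differed by -0.02 under Mock (95% interval -0.10 to 0.05, adjusted p = 0.743). LOXL1 was 1.12-fold higher under FGF8+10 (0.17 ± 0.046, adjusted p = 0.00253; without FGF8+10 Pdgfra-low replicate 2 the value was 0.12, adjusted p = 0.0901) and differed by 0.00 under Mock (95% interval -0.10 to 0.10, adjusted p = 0.997), in edgeR's quasi-likelihood test.

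The 2 low genes also differed between the populations, with wide errors. ELN was 1.84-fold higher in Pdgfra-positive cells under FGF8+10 (log2 fold change 0.88 ± 0.28, adjusted p = 0.0104) and 1.92-fold higher under Mock (0.94 ± 0.29, adjusted p = 0.0113) in edgeR's quasi-likelihood test. Each of these calls was lost without some single libraries: under FGF8+10 without Pdgfra-low replicate 2 (0.66, adjusted p = 0.143) or Pdgfra-positive replicate 1 (0.87, adjusted p = 0.0508), and under Mock without Pdgfra-low replicate 2 (0.76, adjusted p = 0.14) or Pdgfra-positive replicate 1 (0.87, adjusted p = 0.0788). EFEMP1 was 1.83-fold lower in Pdgfra-positive cells under FGF8+10 (-0.87 ± 0.32, adjusted p = 0.0244) and 2.97-fold lower under Mock (-1.57 ± 0.38, adjusted p = 0.00133). The first was lost without FGF8+10 Pdgfra-low replicate 2 (-0.77, adjusted p = 0.143), without FGF8+10 Pdgfra-positive replicate 1 (-0.54, adjusted p = 0.318) and with DESeq2 (-0.89, adjusted p = 0.0549). The Mock call was lost without Mock Pdgfra-low replicate 2 (-1.24, adjusted p = 0.0509).

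**Figure D4:**
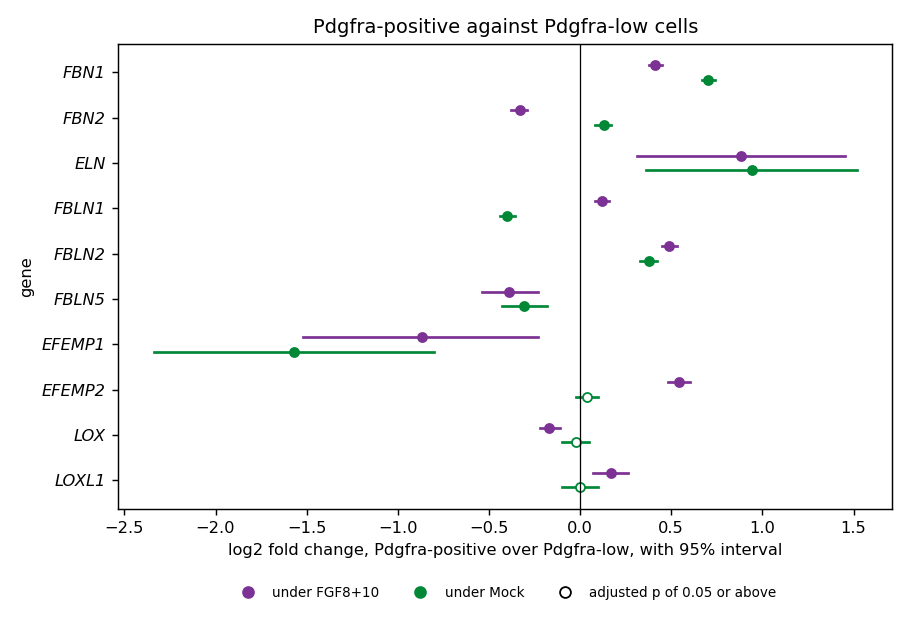
Log2 fold change of each gene, Pdgfra-positive over Pdgfra-low, on the x axis, with its 95% interval as a bar and a separate point under FGF8+10 and under Mock; open points had an adjusted p of 0.05 or above. FBN2 lies at -0.33 under FGF8+10 and 0.13 under Mock, FBLN1 at 0.12 and -0.40, and the intervals of ELN and EFEMP1 are the widest.

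The size of the FGF8+10 effect was tested for a difference between the populations with the interaction term of the same model. It differed for 6 of the 10 genes, against 26.0% of all tested genes. The effect in Pdgfra-positive minus that in Pdgfra-low cells was -0.29 for FBN1 (adjusted p = 6.29e-14), whose rise was larger in Pdgfra-low cells, and -0.46 for FBN2 (adjusted p = 1.97e-16), whose fall was larger in Pdgfra-positive cells. For FBLN1 it was 0.52 (adjusted p = 1.11e-19) and for EFEMP2 0.50 (adjusted p = 1.39e-13), since both fell further in Pdgfra-low cells. FBLN2 had a difference of 0.11 (adjusted p = 0.00441) and LOX one of -0.14 (adjusted p = 0.0208), by edgeR's quasi-likelihood test. The LOX call was lost without any single library other than FGF8+10 Pdgfra-positive replicate 2 and Mock Pdgfra-low replicate 1 (-0.10 to -0.14, adjusted p 0.051 to 0.2), and also with limma-voom (adjusted p = 0.0953) and with no filter on low counts (adjusted p = 0.107). For LOXL1 the difference was 0.17 (95% interval 0.03 to 0.30, adjusted p = 0.0594), which passed without FGF8+10 Pdgfra-low replicate 1 (0.23, adjusted p = 0.0199) and without Mock Pdgfra-low replicate 1 (0.20, adjusted p = 0.0448), and also with no filter on low counts (adjusted p = 0.0326) and with library totals alone (adjusted p = 0.0416). No difference was called for FBLN5 (-0.08, 95% interval -0.28 to 0.12), ELN (-0.06, 95% interval -0.88 to 0.76) or EFEMP1 (0.70, 95% interval -0.32 to 1.71).

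In the order of the 4 group means, FBN1 and FBLN2 shared one pattern, with FGF8+10 Pdgfra-positive highest, then FGF8+10 Pdgfra-low, Mock Pdgfra-positive and Mock Pdgfra-low. FBLN5 had exactly the reverse order. Neighbouring groups in the order did not overlap for these 3 genes, nor for FBN2, FBLN1, EFEMP2 and LOX. The Mock groups of LOX and of EFEMP2 were separated by very little and did not differ in the test. The share of all tested genes with such a separation was not computed, and 2 libraries per group can separate easily. For ELN the 2 Pdgfra-positive groups overlapped each other and so did the 2 Pdgfra-low groups, for EFEMP1 the Mock Pdgfra-low and FGF8+10 Pdgfra-positive groups overlapped, and for LOXL1 the 2 Mock groups did. The highest group mean exceeded the lowest 9.17-fold for FBN1, 7.43-fold for LOX, 5.80-fold for FBLN5 and 4.90-fold for the low gene EFEMP1, and between 1.42-fold and 2.27-fold for LOXL1, EFEMP2, FBLN1, ELN, FBLN2 and FBN2.

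Likeness of pattern was measured as the root mean square difference of mean-centred log2 CPM over the 8 libraries, among 15132 tested genes averaging at least 1 CPM. For LOX, the gene with the largest rise, the nearest genes were ANGPT2 (0.0492), an angiopoietin, and FZD8 (0.0848), a WNT receptor. For FBLN5, the gene with the largest fall, they were VGLL3 (0.102) and TENM3 (0.105). Within the set, the nearest pairs were FBLN1 and EFEMP2 (0.223), FBLN2 and LOXL1 (0.235), FBN2 and FBLN1 (0.319) and FBN1 and LOX (0.339), and the furthest were FBLN5 and LOX (2.50) and FBN1 and FBLN5 (2.46).

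A wider list of 47 other genes of elastic fibre assembly and turnover was read beside the set, of which 45 passed the filter. In Pdgfra-positive cells 17 rose and 21 fell under FGF8+10 (median log2 fold change -0.07; background 25.8% rose and 25.1% fell). In Pdgfra-low cells 14 rose and 26 fell (median -0.39; background 27.9% rose and 27.7% fell), beside 50.9% and 55.7% of all tested genes called. In both populations 13 rose and 20 fell, 73.3% of the tested list against 39.1% of all tested genes called the same way in both. Of 22554 tested genes, 4516 rose and 4308 fell in both, and 462 were called in opposite directions. In the list 2 were called in opposite directions: LTBP1 (0.42 in Pdgfra-positive and -0.31 in Pdgfra-low cells) and GLB1 (0.14 and -0.14). MMP12 and ELANE, both elastases, had almost no reads and were not tested.

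Of 13 microfibril partners, 4 rose and 7 fell in Pdgfra-positive cells, where 25.8% of all tested genes rose and 25.1% fell. In Pdgfra-low cells 3 rose and 10 fell, where 27.9% of all tested genes rose and 27.7% fell. VCAN, the proteoglycan versican that binds fibrillin and fibulins, was at 1325 and 1278 CPM in FGF8+10 Pdgfra-positive cells and 667 and 669 CPM in FGF8+10 Pdgfra-low cells, against 7155 and 7065 CPM in Mock Pdgfra-positive cells and 4981 and 5007 CPM in Mock Pdgfra-low cells. Its log2 fold change was -2.45 ± 0.017 in Pdgfra-positive and -2.90 ± 0.018 in Pdgfra-low cells. MFAP4, a microfibril-associated glycoprotein, was at 151 to 418 CPM in the FGF8+10 libraries and 1439 to 1966 CPM in the Mock libraries (-2.23 ± 0.021 and -3.25 ± 0.022). EMILIN2, an elastin microfibril interface protein, was at 7.03 and 6.76 CPM in FGF8+10 Pdgfra-positive cells, against 185 and 188 CPM in Mock Pdgfra-positive cells (-4.75 ± 0.047, and -3.98 ± 0.043 in Pdgfra-low cells). EMILIN3 (-1.31 and -1.34) and LTBP4 (-1.20 and -1.93), a TGF-beta binding protein that also guides elastin assembly, fell as well. LTBP2 (1.92 and 1.72) and the small proteoglycan BGN (2.25 ± 0.050 and 1.76 ± 0.053) rose in both populations, BGN standing at 54.8 to 126 CPM in the FGF8+10 libraries and 15.6 to 26.7 CPM in the Mock libraries. MFAP5, a partner of fibrillin, was called higher in both, at 0.221 to 1.62 CPM in the FGF8+10 libraries and 0 to 7 counts per library in the Mock libraries, too few for a fold change that does not depend on the prior count.

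Of the 3 other fibulins, FBLN7 (1.75 ± 0.20 and 0.63 ± 0.19 in Pdgfra-positive and Pdgfra-low cells) and HMCN2 (2.07 ± 0.27 and 2.51 ± 0.28) rose, and HMCN1 fell (-0.37 and -0.30). FBLN7 was at 3.19 to 5.83 CPM in the FGF8+10 libraries and 1.64 to 2.60 CPM in the Mock libraries. Of the 3 other lysyl oxidases, LOXL2 rose (0.61 and 0.84), LOXL3 fell (-0.30 and -0.82) and LOXL4 fell (-1.53 ± 0.075 and -1.38 ± 0.077). Among processing enzymes and chaperones, TLL1, a tolloid-type protease, was at 0.163 to 0.512 CPM in the FGF8+10 libraries and 6.18 to 18.8 CPM in the Mock libraries (-4.93 ± 0.22 and -5.28 ± 0.19), and FKBP10, a chaperone of the endoplasmic reticulum for collagens and tropoelastin, had -0.86 ± 0.019 and -1.06 ± 0.019.

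The 10 ADAMTS and ADAMTS-like genes, several of whose products bind fibrillin microfibrils, moved in both directions. Of them 4 rose and 5 fell in Pdgfra-positive cells (background 25.8% and 25.1%), and 3 rose and 5 fell in Pdgfra-low cells (background 27.9% and 27.7%). The log2 fold changes in Pdgfra-positive and in Pdgfra-low cells were -3.89 ± 0.053 and -5.50 ± 0.071 for ADAMTSL1, -4.18 ± 0.096 and -4.85 ± 0.11 for ADAMTSL3, -4.78 ± 0.16 and -3.77 ± 0.14 for ADAMTSL5, -2.63 ± 0.089 and -2.24 ± 0.090 for ADAMTSL4, and -2.26 ± 0.20 and -1.49 ± 0.20 for ADAMTS17. ADAMTS6 (1.06 and 0.83), ADAMTSL2 (0.68 and 1.47) and THSD4 (0.43 ± 0.078 and 2.25 ± 0.083) rose in both. ADAMTSL1 was at 1.89 to 9.80 CPM in the FGF8+10 libraries and 86.9 to 144 CPM in the Mock libraries. Among elastases and the elastin receptor genes, CTSS fell in Pdgfra-positive cells (-1.20 ± 0.44, adjusted p = 0.0192) with 0.15 ± 0.50 in Pdgfra-low cells, and MMP9, at under 1 CPM everywhere, rose in Pdgfra-low cells (3.10 ± 0.62, adjusted p = 3.28e-05) with 0.71 ± 0.56 in Pdgfra-positive cells (adjusted p = 0.311). For the other genes named from the wider list, every adjusted p in edgeR's quasi-likelihood test was at or below 0.00411 where a rise or fall is stated.

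**Figure D5:**
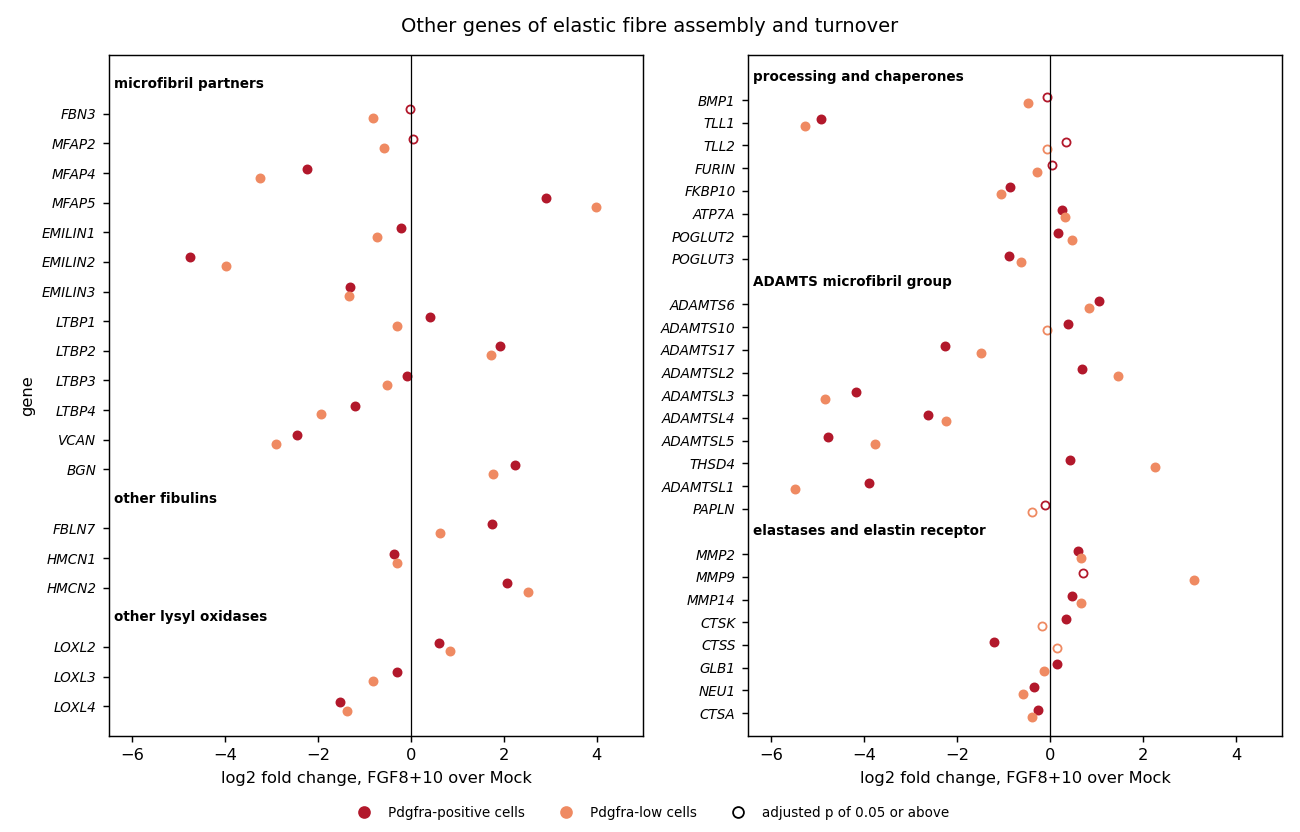
Log2 fold change, FGF8+10 over Mock, of the 45 tested genes of the wider list, grouped by role, with 1 point for Pdgfra-positive and 1 for Pdgfra-low cells; open points had an adjusted p of 0.05 or above. ADAMTSL1, ADAMTSL3, ADAMTSL5, TLL1 and EMILIN2 lie at or beyond -3.77 in both populations, and BGN and HMCN2 lie at 1.76 or above in both.

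Markers of other cell types, 10 genes per list, moved with the treatment and the gate. Cardiac muscle markers summed to 23.9 and 25.0 CPM in FGF8+10 Pdgfra-positive and 14.1 and 14.2 CPM in FGF8+10 Pdgfra-low cells, against 153 and 159 CPM in Mock Pdgfra-positive and 150 and 157 CPM in Mock Pdgfra-low cells, led by TNNI1. Of the 8 tested, 6 fell in Pdgfra-positive cells (background 25.1%) and 7 in Pdgfra-low cells (background 27.7%). None rose in either (background 25.8% and 27.9%). TNNT2 was detected in all 8 libraries, while MYH6 was at 0 in 4. In FGF8+10 Pdgfra-positive and Pdgfra-low cells TNNT2 averaged only 0.738 and 0.217 CPM, against 62.0 and 47.2 CPM in the Mock ones. Smooth muscle markers summed to 91.3 to 112 CPM in the FGF8+10 libraries and 160 to 185 CPM in the Mock libraries, led by SMTN. In Pdgfra-positive cells 6 of 10 fell (background 25.1%) and 1 rose (background 25.8%). In Pdgfra-low cells 5 fell (background 27.7%) and 2 rose (background 27.9%). The defining smooth muscle genes ACTA2, TAGLN and MYH11 were above 0 in every library. ACTA2 was at 12.7 to 18.7 CPM in the FGF8+10 libraries and 2.20 to 4.35 CPM in the Mock libraries. Endothelial markers summed to 2129 to 2581 CPM in the FGF8+10 libraries and 1329 to 1371 CPM in the Mock libraries. Most of that sum was KDR, at 1610 to 1970 CPM in the FGF8+10 libraries and 1148 to 1209 CPM in the Mock libraries. Of the 10 genes, 1 to 3 were under 1 CPM in each FGF8+10 library and 4 to 5 in each Mock library. All 10 rose in Pdgfra-low cells (background 27.9%). In Pdgfra-positive cells 5 rose (background 25.8%) and 2 fell (background 25.1%). PECAM1, CDH5 and TEK were above 0 in every library. The part of these cell types in the changes of the elastic fibre genes was not tested.

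Between the gates, epithelial markers, led by KRT8, summed to 249 CPM in both FGF8+10 Pdgfra-positive libraries, against 962 and 980 CPM in FGF8+10 Pdgfra-low cells, and to 264 and 265 CPM in Mock Pdgfra-positive cells, against 605 and 606 CPM in Mock Pdgfra-low cells, with CDH1 and EPCAM at or under 1.51 CPM throughout. Mesothelial markers, led by KRT19, summed to 521 to 525 CPM in FGF8+10 Pdgfra-positive and 611 to 621 CPM in FGF8+10 Pdgfra-low cells. They summed to 587 CPM in both Mock Pdgfra-positive libraries, against 864 and 867 CPM in Mock Pdgfra-low cells. WT1 was at 0 in 2 Mock libraries and MSLN at 0 in both FGF8+10 Pdgfra-low libraries. UPK3B averaged 5.47 RPKM in Mock Pdgfra-low cells, against 0.143 RPKM in Mock Pdgfra-positive cells and at most 0.259 RPKM under FGF8+10. BNC1 averaged 16.7 RPKM in Mock Pdgfra-low cells, against 3.56 RPKM in Mock Pdgfra-positive cells and at most 4.97 RPKM under FGF8+10. ALDH1A2 went the other way. It averaged 9.72 and 5.61 RPKM in FGF8+10 Pdgfra-positive and Pdgfra-low cells, against 0.951 and 0.0538 RPKM in the Mock ones. With FGF8+10 against Mock in Pdgfra-low cells, 6 of the 9 tested mesothelial markers fell (background 27.7%) and 3 rose (background 27.9%). Under Mock, 6 of the 9 tested mesothelial markers were lower in Pdgfra-positive cells (background 13.4%) and 1 was higher (background 12.4%). Blood markers, led by CD34, summed to 16.9 and 18.2 CPM in FGF8+10 Pdgfra-low cells and to 3.66 to 5.65 CPM in the other groups. CD34 was at 13.8 and 15.7 CPM in FGF8+10 Pdgfra-low cells and at 0.690 to 2.25 CPM in the other groups. PTPRC and HBZ were at 0 to 6 counts. Under FGF8+10, 9 of the 10 endothelial markers were lower in Pdgfra-positive cells (background 21.7%) and none was higher (background 19.6%). Their median log2 fold change was -2.69, the largest in size of the marker lists, beside -0.14 for epithelial markers. PECAM1 and CDH5 averaged 18.5 and 19.8 CPM in FGF8+10 Pdgfra-low cells, against 2.60 and 1.39 CPM in the Pdgfra-positive ones. Under Mock, 3 of the 10 endothelial markers were higher in Pdgfra-positive cells (background 12.4%), 1 lower (background 13.4%) and 6 not called. Limb and lateral plate mesenchyme markers, led by PDGFRA, the gene of the gate, summed to 1710 and 1715 CPM in FGF8+10 Pdgfra-positive and 972 and 989 CPM in FGF8+10 Pdgfra-low cells, against 1330 and 1337 CPM in Mock Pdgfra-positive and 952 and 969 CPM in Mock Pdgfra-low cells, with PRRX1, PRRX2 and TWIST1 present in all 8 libraries. Their part in the differences between the populations was not tested.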

How the data were processed

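RNA sequencing libraries (8, as 4 groups of 2 by the sample titles) were made with TRI Reagent and a NEBNext Ultra kit, per the labels' protocols. The values analysed are raw counts by gene name, as the authors deposited them. The submitters' processing notes name FastQC 0.11.8, HISAT2 2.1.0 and GRCh38. Per the file headers, featureCounts 2.0.3 counted exons of GENCODE release 42 without strand and counted both mates, so counts overstate independent fragments, and dropped reads that hit several genes. Trimming is not given in the sources used here. All sample columns were used.

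From the counts, 22554 of 39416 genes with any count passed filterByExpr and were fitted in 1 robust quasi-likelihood model over all 8 libraries (R 4.3.3, edgeR 4.0.16), with TMM factors (1.055 to 1.065 for the FGF8+10 libraries, 0.936 to 0.952 for the Mock libraries) and 4 residual degrees of freedom. For 5 two-sided contrasts, p-values were Benjamini-Hochberg adjusted over all tested genes at 0.05. The SE is the size of the log2 fold change divided by the square root of F. Alternatives were RLE factors, library totals alone, no filter, DESeq2 1.42.0, limma-voom (limma 3.58.1), counts divided by 2, only the libraries compared, the replicate number as a block, and each library left out. The code was tested on simulated data. Depth was 47698561 to 64390444 counts per library, with a common biological coefficient of variation of 4.06%.

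The members and gene lists were chosen with earlier results of these data known, so no test over a list is given. All 10 members are named; from the wider list, genes called with a log2 fold change of at least 1 in size in a treatment contrast are named, with others added for a pair or a list after their values were seen. Upstream windows come from the RefSeq promoter table.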

Additional observations from a re-analysis of the deposited data

Results flagged for a closer look

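The effect of FGF8+10 differed between Pdgfra-positive and Pdgfra-low cells for 6 of the 10 genes, against 26.0% of all tested genes. The test was the interaction term of edgeR's quasi-likelihood model over 8 libraries with Benjamini-Hochberg adjustment. The difference of the log2 fold changes, Pdgfra-positive minus Pdgfra-low, was -0.29 ± 0.023 (SE) for FBN1, -0.46 ± 0.031 for FBN2, 0.52 ± 0.028 for FBLN1, 0.11 ± 0.031 for FBLN2, 0.50 ± 0.041 for EFEMP2 and -0.14 ± 0.048 for LOX. The LOX call was lost with limma-voom, with no filter on low counts and in most fits without 1 library. For none of the 6 did the effect change sign between the populations. Among all 22554 tested genes, 462 were called in opposite directions by FGF8+10 in the 2 populations.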

How the results depend on the processing

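The counts of called genes stayed within 1.5 times their value under every setting run. Over the 8 fits without 1 library, the called members numbered 8 to 9 (Pdgfra-positive cells) and 8 to 9 (Pdgfra-low cells) for FGF8+10 against Mock, 7 to 10 (FGF8+10) and 5 to 7 (Mock) for Pdgfra-positive against Pdgfra-low, and 5 to 7 for the difference of effects. The called genes of the wider list numbered 35 to 38, 39 to 40, 28 to 33, 21 to 29 and 28 to 30 in the same order. Of the member fold changes under alternatives, 752 kept direction and side of the threshold, 13 newly passed it, 19 no longer passed and 6 changed sign. The sign changes were in values with no call. Without 1 library, the ELN difference of effects ran from -0.26 to 0.20 (above 0 without FGF8+10 Pdgfra-low replicate 1, Mock Pdgfra-low replicate 2 or, at 0.02, Mock Pdgfra-positive replicate 1; 0.12 for the second of these). ELN in Pdgfra-positive cells ran from -0.12 to 0.02, and was 0.11 with library totals alone, and the FBLN5 difference ran from -0.17 to 0.03, the highest of both being without Mock Pdgfra-positive replicate 1. The cause was not tested.

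Replicate numbers share only a label: deviations of same-numbered libraries correlated across genes at -0.01 to 0.03. With the number as a replicate block, the called members were 9 in each population for FGF8+10 against Mock, 10 and 7 between the populations and 6 for the difference; EFEMP1 in Pdgfra-low cells then passed (0.74, adjusted p = 0.0441). The log2 ratio of FBN1 to FBN2 (-0.23 to 4.03) is equal in TPM and RPKM by construction. Counts of 15 to 124 limit ELN and EFEMP1, and 2 libraries per group limit the rest.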
